A study of Mus musculus with 474 samples.

Results

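Haematopoietic stem cell (HSC) divisions were set apart by the transcript level of Cd34 in their daughters, and divisions with a high level were compared with divisions with a low level across all other genes. A division entered where both daughters were sequenced and exactly 1 carried the label high and 1 the label low for inherited lysosomes, and the divisions that met this hold 85.7% of all sequenced cells. The groups were chosen by the measured Cd34 level: within each of 9 culture experiments, divisions were ranked by the sisters' mean log2(CPM + 1) of Cd34, where CPM is counts per 1000000 counts on genes, and split into 3 tiers. The top tier (Cd34-high) and the bottom tier (Cd34-low) hold 64 divisions each, and 75 divisions lie between them, with 2 cells per division. Together the outer tiers are 63.1% of the divisions and 54.01% of all cells. Each experiment gave 3 to 12 divisions to each outer tier.

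All cells came from wild-type male C57BL/6JRj mice between 12 and 19 weeks old. HSCs were taken from bone marrow, filmed through their first division in culture, and their daughters were picked with a micromanipulator and sequenced one by one with Smart-seq2, a full-length single-cell RNA method. No treatment or genotype separates the groups: Cd34-high and Cd34-low are tiers of the same untreated cultures, and both hold equal numbers of daughters labelled high and low for lysosomes. The labels do not say whether experiments were separate mice, so p-values over experiments measure only the spread between these 9 cultures.

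CD34 is a sialomucin, a heavily glycosylated surface protein of blood progenitors and endothelium, and a ligand of selectins once suitably glycosylated. In the adult mouse, HSCs with the longest repopulating activity are found mostly among cells without CD34 on the surface, while short-term HSCs and multipotent progenitors carry it, and activated HSCs can gain it. Lysosomes are the degradative organelles of the cell, and HSC daughters can receive unequal amounts of them at division.

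Cd34 (ENSMUSG00000016494, GRCm38 chromosome 1, 194938819 to 194961279, plus strand) chose the groups, so its level is given as a description without a test. In Cd34-high divisions the summed cells of an experiment stood at 180.3 to 289.1 CPM of Cd34 (median 234.9 over 9 experiments). The divisions between the tiers stood at 94.2 to 209.7 CPM (median 149.9), and the Cd34-low divisions at 38.6 to 135.2 CPM (median 72.4). Within an experiment the ratio of the outer tiers was smallest in experiment 75 at 2.14 and greatest in experiment 72 at 5.78, with a median of 3.15. Absolute levels differed between cultures, and the bottom tier of experiment 75 stood above the middle tier of experiment 72.

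The bottom tier is a low rather than an empty class. A Cd34 count was present in every cell of the Cd34-high and middle divisions and in all but 7 cells of the Cd34-low divisions (94.5% with a count). Of the Cd34-low divisions, 5 had a daughter without a Cd34 count, and in 2 of those both daughters lacked one. The boundaries cut through a continuous range. The lowest division inside the top tier stood 0.0015 to 0.64 above the highest division outside it (log2 scale, median 0.041 over experiments), at 7.18 to 7.90 against 6.73 to 7.89. The highest division inside the bottom tier stood 0.0034 to 0.44 below the lowest outside it (median 0.066), at 6.09 to 7.48 against 6.30 to 7.49. The plot of Cd34 by experiment and tier shows these ranges side by side.

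**Figure D1:**
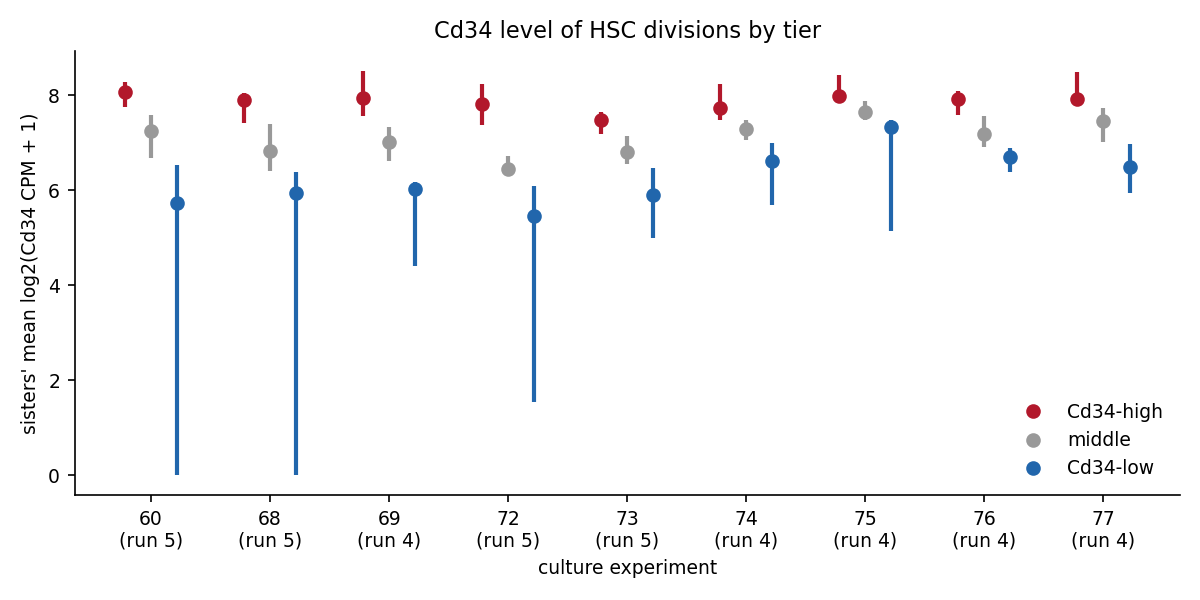
Cd34 level of the divisions in each of 9 experiments, as the sisters' mean log2(CPM + 1); points mark the median and bars the full range of the divisions of a tier. Tiers were formed on this value, so their separation is built in; the Cd34-low bars reach 0 in experiments 60 and 68, where 1 division each had no Cd34 count in either daughter.

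A daughter that took no part in the ranking gives a measurement that the choice did not fix. When divisions were ranked on the daughter labelled low alone, Cd34 in the other daughter, the one labelled high, stood at 153.8 to 266.97 CPM in the top tier (median 217.6) and at 53.4 to 177.9 CPM in the bottom tier (median 98.8). The difference was 1.45 ± 1.03 on the log2 scale (mean ± SD, n = 9 experiments), it was above 0 in 9 of 9 experiments, and the exact two-sided sign-flip permutation p was 0.0039, the smallest that 9 experiments allow. When the ranking used the daughter labelled high, Cd34 in the daughter labelled low stood at 123.4 to 260.4 CPM in the top tier (median 219.3) and at 39.5 to 166.9 CPM in the bottom tier (median 85.9). That difference was 1.52 ± 1.10 (SD, n = 9), again above 0 in 9 of 9 experiments (exact permutation p = 0.0039). Sister levels thus went together in both directions of ranking.

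Sisters of Cd34-high divisions lay closer to each other than sisters of Cd34-low divisions did. The median absolute sister difference in log2(Cd34 CPM + 1) was 0.40 in the top tier, 0.46 in the middle and 0.68 in the bottom tier, given as a description because counts are fewer where Cd34 is low. Over all divisions, Cd34 in the daughter with more lysosomes minus the daughter with fewer was 0.20 ± 0.29 (SD over 9 experiments), above 0 in 7 of 9 experiments, and did not pass (exact two-sided sign-flip permutation p = 0.0508). Within Cd34-high divisions the same difference was 0.05 ± 0.25 (5 of 9 experiments above 0). Within Cd34-low divisions it was 0.47 ± 0.74 (6 of 9). Both values are descriptions, since the same Cd34 values placed the divisions in their tier, and a daughter without a count puts its division towards the bottom tier. Whether the daughters differ more in one tier than in the other was not tested for Cd34. With a pseudocount of 10 in place of 1, the difference over all divisions was 0.15 ± 0.21 with an exact permutation p of 0.0352, so this result crosses the threshold with the pseudocount.

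Libraries held 76735 to 2444858 counts on genes, with a median of 833354 over the cells of divisions. Cd34-high libraries were slightly deeper. Their mean log2 total was 0.16 ± 0.23 above that of Cd34-low libraries (SD, n = 9 experiments), higher in 7 of 9 experiments (exact two-sided sign-flip permutation p = 0.0273, adjusted p = 0.109 over 4 library measures). Detected genes differed by -44.0 ± 541.7 (exact permutation p = 0.789), the share of mitochondrial counts by -0.23 ± 0.57 percentage points (exact permutation p = 0.285) and that of spike-ins by -0.42 ± 1.32 percentage points (exact permutation p = 0.5625). Of 11 outer-tier divisions that held a library under 250000 counts or with over 5% spike-in counts, 8 were Cd34-low and 3 Cd34-high. The part of depth in the differences below was not tested beyond the alternatives given with them. Most of the 8 HSC markers examined were common in both groups. A count of Mecom was present in 100% of cells of either tier, of Hlf in 100% and 99.2%, of Ly6a in 99.2% and 93.75% and of Fgd5 in 88.3% and 81.25% of cells from Cd34-high and Cd34-low divisions. Procr had a count in 89.1% and 71.9%, Ctnnal1 in 82.03% and 90.6% and Slamf1 in only 20.3% and 32.03%, the last 2 more often in Cd34-low divisions. Hoxb5, another HSC marker, was listed at 0 in every cell, which is not read as absence, since genes that every cell uses, such as B2m and Rpl13, were listed at 0 as well.

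No gene passed the test between Cd34-high and Cd34-low divisions. Counts were summed over the cells of each experiment and tier, and edgeR's quasi-likelihood test with the experiment as block tested 12037 genes besides Cd34. At an adjusted p under 0.05 it called 0 genes (0.0%), and the smallest adjusted p was 0.743. At an unadjusted p under 0.05 stood 782 genes (6.5%), 3.56% of those tested being higher and 2.93% lower in Cd34-high divisions. Of these 782, 54.9% were higher. Scaled by library totals without TMM factors, 66.5% of 790 such genes were higher. Limma over divisions had 50.9% of 793 higher, and 69.7% of 803 with depth and detected genes in the model. The balance of directions thus differed with the scaling and with the terms in the model. In no gene did the 9 values of one tier lie wholly above the 9 of the other (0.0%). A difference in the same direction in 9 of 9 experiments was found in 74 genes (0.615%). Over all genes tested, 6094 had a positive and 5943 a negative difference. These counts, with 3.56% higher and 2.93% lower at an unadjusted p under 0.05, are the background for the gene lists below.

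Other tools called a few genes. DESeq2 on the same sums called 45 genes, 25 higher and 20 lower, of 13774 with an adjusted p (0.327%). Over division means with the experiment as block, limma called 1 gene, Camk1, at 0.94 ± 0.19 (adjusted p = 0.020). With depth and the number of detected genes in that model it called 4, namely Camk1, Tmem173, Limd2 and Abcb8. Limma over divisions with cell cycle scores called 0 genes (smallest adjusted p = 0.131), as did limma on means per experiment and tier (0.791). The fits over divisions treat divisions of 1 culture as independent. In edgeR, 8445 genes (70.2%) had a 95% interval narrower than a 2-fold change in either direction, with a median SE of 0.21 on the log2 scale. These intervals are unadjusted and do not say which differences the adjusted test could call. Tested within sequencing runs, edgeR had 2.97% of genes at an unadjusted p under 0.05 in the 5 experiments of run 4 and 6.26% in the 4 experiments of run 5, with 0 past the threshold in either.

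Among the genes with the smallest p on the higher side are the kinase genes Camk1 and Camkk2. No list of calcium-dependent kinases was among the gene lists. All log2 differences from here on are Cd34-high minus Cd34-low divisions from edgeR, each with its SE, in parentheses where it follows the levels directly, and every one of the 30 genes with the smallest p has an adjusted p of 0.743. Camk1 (ENSMUSG00000030272, chromosome 6, 113334124 to 113343984), a kinase switched on by calcium and calmodulin, stood at 125.8 to 261.7 CPM with a median of 203.5 in Cd34-high and at 42.1 to 209.8 CPM with a median of 97.5 in Cd34-low divisions. Its log2 difference was 1.0 ± 0.21, and Cd34-high was the higher tier in 9 of 9 experiments, by very little in experiment 77 (214.4 against 209.8 CPM). The ranges of the 2 tiers overlap between cultures. Camkk2, which encodes the kinase that phosphorylates CAMK1, stood at 125.4 to 240.7 CPM with a median of 189.6 against 83.2 to 179.3 CPM with a median of 132.3, a difference of 0.49 ± 0.11 with the same sign in 9 of 9 experiments. When ranking and measurement were kept in different daughters, Camk1 stood at 0.66 and 0.76 and Camkk2 at 0.35 and 0.36. The first value is for the ranking on the low daughter and the second for that on the high daughter. These values are not independent of the choice of the genes, which were picked by p in the same cells.

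The other genes with the smallest p on the higher side have varied known functions. Xbp1, the transcription factor of the unfolded protein response, stood at 217.4 to 556.3 CPM with a median of 428.2 in Cd34-high and 145.2 to 402.9 CPM with a median of 272.6 in Cd34-low divisions, with a difference of 0.48 ± 0.09 and 9 of 9 experiments higher. Tmem173, which encodes the innate sensor STING, stood at 40.2 to 96.1 CPM with a median of 64.4 against 16.2 to 66.7 CPM with a median of 31.5, a difference of 0.97 ± 0.24 with 9 of 9 experiments higher. For both genes the range of the upper tier begins inside that of the lower tier, although each culture alone gave the same order. S1pr2, a receptor for sphingosine 1-phosphate, stood at 39.02 to 74.4 CPM with a median of 69.7 against 23.01 to 50.8 CPM with a median of 40.4 and differed by 0.61 ± 0.13, with only experiment 76 on the other side of 0. Dusp2, a phosphatase of MAP kinases, stood at 22.5 to 69.6 CPM with a median of 49.3 against 11.2 to 53.1 CPM with a median of 23.6 and differed by 0.70 ± 0.17. Rnf13, an endosomal and lysosomal ubiquitin ligase, and Rab31, a GTPase of endosomal transport, differed by 0.52 ± 0.12 and 0.39 ± 0.10, each higher in 9 of 9 experiments. Bcr, known from its fusion with ABL in leukaemia, differed by 0.58 ± 0.14, the cytoskeletal pseudokinase gene Peak1 by 0.49 ± 0.10, the zinc finger gene Zfp110 by 0.56 ± 0.13 and the LIM domain gene Limd2 by 0.68 ± 0.17. These 4 genes were higher in 9 of 9 experiments. Less often detected were Thsd1, a membrane protein with a thrombospondin domain, at 1.62 ± 0.38 (0.99 over divisions, 71.9% of cells from Cd34-high and 62.5% of cells from Cd34-low divisions with a count), and the tetraspanin gene Tspan2 at 1.72 ± 0.42 (0.75 over divisions, 50.8% of cells from Cd34-high and 39.8% of cells from Cd34-low divisions). The rankings on single daughters, in the order used for Camk1, gave 0.65 and 0.13 for Xbp1, 0.53 and 0.22 for S1pr2 and 0.38 and 0.17 for Zfp110. For Peak1 they gave 0.65 and 0.42 and for Dusp2 0.74 and 0.57. Of the 15 genes on the higher side, H2-Ab1 is described with its class below.

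**Figure D2:**
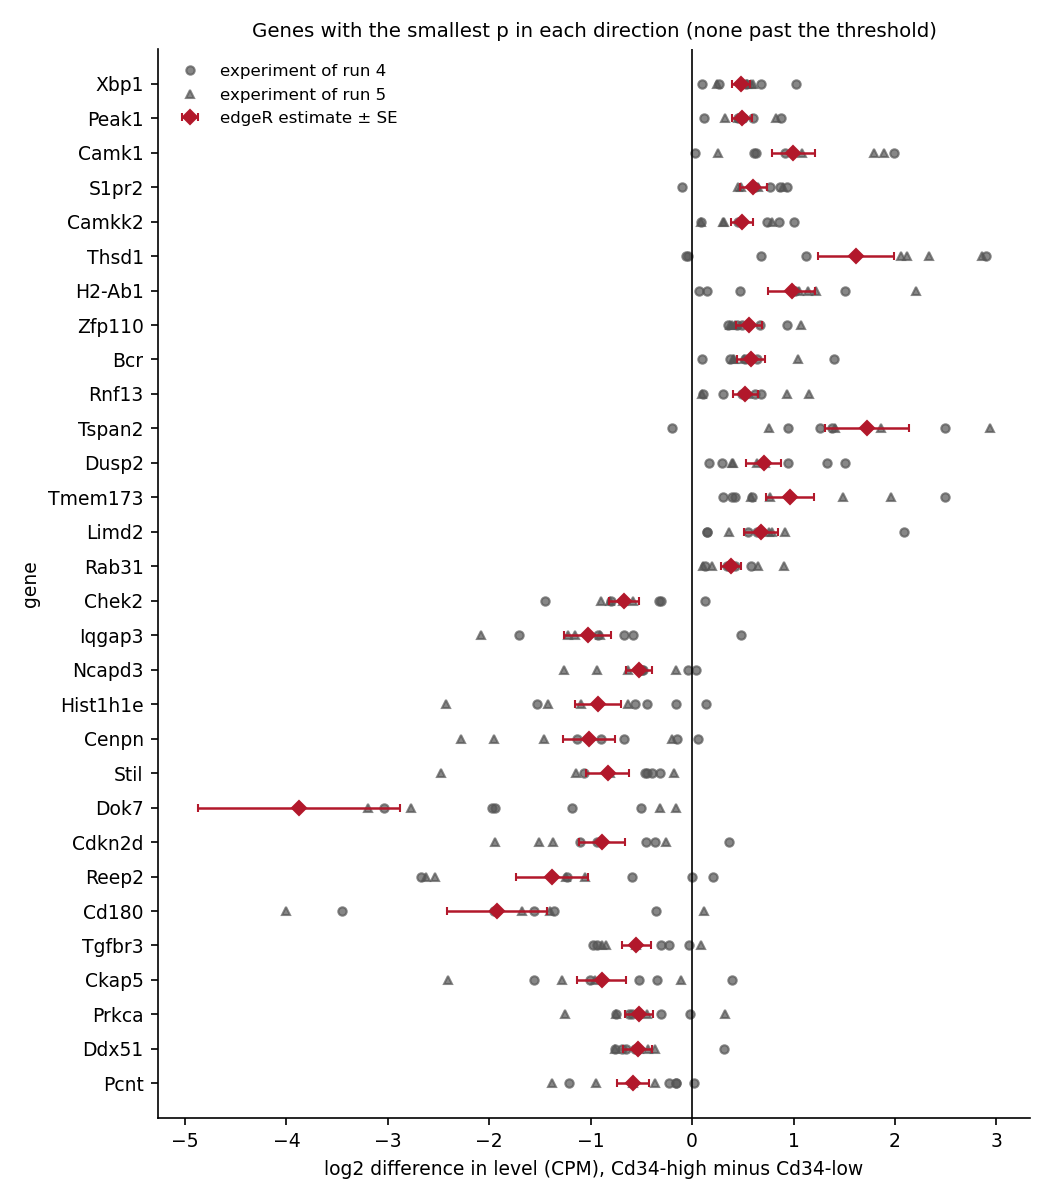
Log2 difference in level between Cd34-high and Cd34-low divisions for the 15 higher and the 15 lower genes with the smallest p; grey points are the 9 experiments (difference of log2(CPM + 1); circles run 4, triangles run 5) and red diamonds the edgeR estimate with its SE. Most genes have every experiment or all but 1 on one side of 0, Camk1 in 9 of 9; for genes with few counts, such as Dok7, the edgeR estimate lies outside the points because the points carry a pseudocount of 1.

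The 15 genes with the smallest p on the lower side also have varied known functions, and those that act on DNA, chromosomes, centrosomes or the cell cycle are given first. Chek2, a checkpoint kinase of the DNA damage response, stood at 46.9 to 101.9 CPM with a median of 64.6 in Cd34-high and at 87.996 to 133.3 CPM with a median of 113.5 in Cd34-low divisions, a difference of -0.67 ± 0.15, lower in 8 of 9 experiments. Stil, needed for centriole duplication, stood at 15.8 to 65.8 CPM with a median of 51.2 against 64.7 to 101.98 CPM with a median of 72.7, a difference of -0.83 ± 0.21, and was lower in 9 of 9 experiments. The 2 ranges of Stil barely meet, with the lowest Cd34-low value just under the highest Cd34-high value. Cenpn, a centromere protein, stood at 12.3 to 56.2 CPM with a median of 25.9 against 38.3 to 105.9 CPM with a median of 50.4 (-1.01 ± 0.26). Ncapd3, a subunit of condensin II, differed by -0.52 ± 0.13 and the microtubule polymerase gene Ckap5 by -0.89 ± 0.24. The centrosome scaffold gene Pcnt differed by -0.59 ± 0.16 and the scaffold gene Iqgap3 by -1.03 ± 0.23. Ncapd3, Ckap5, Pcnt and Iqgap3 were each lower in 8 of 9 experiments. Iqgap3 stood at -0.06 with the ranking on the low daughter and at -1.20 with that on the high daughter. The linker histone gene Hist1h1e differed by -0.93 ± 0.23, uncertain because its family members are alike in sequence. Cdkn2d, an inhibitor of CDK4 and CDK6, stood at 14.8 to 58.6 CPM with a median of 31.6 against 36.9 to 114.7 CPM with a median of 61.6. Its difference was -0.89 ± 0.23 with 8 of 9 experiments lower. In limma over divisions, without and with cell cycle scores, Chek2 stood at -0.48 and -0.27 and Stil at -0.71 and -0.25. In the same order, Cenpn stood at -1.02 and -0.48, Ncapd3 at -0.46 and -0.25 and Ckap5 at -0.50 and -0.12. Pcnt stood at -0.56 and -0.39, Iqgap3 at -1.01 and -0.16, Hist1h1e at -0.48 and -0.27 and Cdkn2d at -0.75 and -0.33. The part of the cell cycle in these differences was not tested.

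The other genes on the lower side are best known for other functions. Cd180, a Toll-like receptor homologue, stood at 0.279 to 8.33 CPM with a median of 6.53 in Cd34-high and 6.96 to 101.05 CPM with a median of 19.1 in Cd34-low divisions (-1.92 ± 0.50), with a count in 30.5% of cells from Cd34-high and 54.7% of cells from Cd34-low divisions. Tgfbr3, the TGF-beta coreceptor betaglycan, stood at 29.3 to 160.3 CPM with a median of 70.8 against 43.4 to 223.4 CPM with a median of 103.7 (-0.55 ± 0.14), and Prkca, protein kinase C alpha, at 84.7 to 311.5 CPM with a median of 114.8 against 105.1 to 478.7 CPM with a median of 203.2 (-0.52 ± 0.14). The ranges of Cd180 barely meet, with only its lowest Cd34-low value inside the Cd34-high range, while those of Tgfbr3 and Prkca overlap widely. Each of the 3 was lower in 8 of 9 experiments, and Cd180 stood at -1.08 over divisions. Reep2, which shapes the endoplasmic reticulum, differed by -1.38 ± 0.36 (7 of 9 lower) and the RNA helicase gene Ddx51 by -0.53 ± 0.14. Dok7, an adaptor of the receptor kinase MuSK, was listed at 0 in several Cd34-high sums. It stood at 0 to 29.2 CPM with a median of 0 against 0.246 to 32.6 CPM with a median of 5.83, with a fitted difference of -3.88 ± 0.99 that depends on the treatment of zeros and a count in only 10.9% of cells from Cd34-high and 25.8% of cells from Cd34-low divisions.

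Mitosis genes and MHC class II genes had the medians farthest from 0 among the lists, on opposite sides. The mitosis genes act in G2 and M phase, from chromosome condensation to cytokinesis, and 44 of 45 listed genes were tested. None passed the test, 23 stood lower at an unadjusted p under 0.05 against 2.93% of all genes, none stood higher, and 44 of 44 had a negative difference. Their median was -0.97, beside 0.00 over all genes tested. Mki67, the proliferation antigen Ki-67, stood at 102.7 to 902.2 CPM with a median of 659.97 in Cd34-high and 560.4 to 1452.5 CPM with a median of 1207.5 in Cd34-low divisions, a difference of -1.08 ± 0.34. Cenpe, a kinetochore motor, stood at 15.3 to 140.2 CPM with a median of 76.2 against 85.5 to 224.7 CPM with a median of 147.5 (-1.11 ± 0.36). Smc4, a condensin subunit, differed by -0.80 ± 0.25 and the motor gene Kif20b by -0.93 ± 0.30. Each of these 4 was lower in 8 of 9 experiments, and experiment 77 was the exception.

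Plk1, the kinase that drives mitotic entry and cytokinesis, stood at 0.697 to 97.9 CPM with a median of 50.02 in Cd34-high and 29.7 to 194.5 CPM with a median of 95.3 in Cd34-low divisions. Its difference was -1.31 ± 0.62 and it was lower in 8 of 9 experiments. A Plk1 count in at least 1 daughter was present in 39 of 64 Cd34-high divisions (60.9%, 95% Wilson interval 48.7 to 71.9), in 49 of 75 middle divisions (65.3%, 54.1 to 75.1) and in 44 of 64 Cd34-low divisions (68.75%, 56.6 to 78.8). The intervals, which cover counting error only, overlap throughout.

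Averaged over the list per experiment as mean log2(CPM + 1), mitosis genes stood at 1.53 to 5.06 in Cd34-high (median 3.99) and at 2.81 to 6.71 in Cd34-low divisions (median 5.19). The difference was -1.29 ± 2.01 (SD, n = 9), negative in 8 of 9 experiments, -4.99 in experiment 72 and -3.89 in experiment 69, and 1.74 in experiment 77. The SD exceeds the mean, and the largest values belong to the cultures with the fewest divisions per tier, 3 in experiment 72 and 4 in experiment 69. The list median was -0.68 in run 4 and -1.39 in run 5, -1.23 without experiment 77 and -0.66 without experiment 72. With the ranking in one daughter and the measurement in the other it was -0.62 (ranked on the low daughter) and -1.19 (ranked on the high daughter). In limma over divisions it was -0.89, and -0.01 with G1/S and G2/M scores added, a change that is partly built in, since the scores hold the list's own genes.

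DNA replication genes, which act from G1 into S phase, had a median nearer to 0. Of 40 tested, 1 stood lower and 0 higher at an unadjusted p under 0.05, and the median was -0.11. The sign of the median differed between runs, at 0.21 in run 4 and -0.53 in run 5, and it was 0.06 without experiment 72. Rrm1, the large subunit of ribonucleotide reductase, was that 1 gene, at -0.46 ± 0.20, with -0.07 in run 4, -0.97 in run 5 and -0.04 over divisions. The helper of replication forks Clspn stood at -0.40 ± 0.19 and the deubiquitinase gene Usp1 at -0.26 ± 0.12, neither under that p. Averaged per experiment, the list differed by -0.29 ± 1.21, positive in 4 and negative in 5 experiments, as the paired lines for replication and mitosis genes show.

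**Figure D3:**
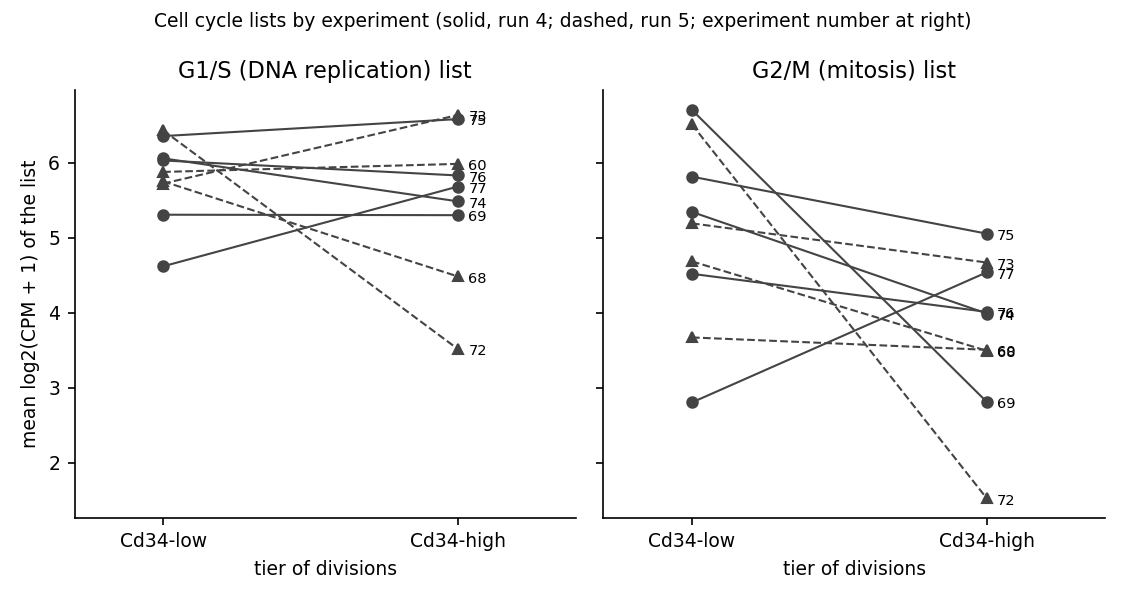
Mean log2(CPM + 1) of the G1/S list (left) and the G2/M list (right) in Cd34-low and Cd34-high divisions, 1 line per experiment. The G2/M lines go down in 8 of 9 experiments and up in experiment 77; the G1/S lines go up in 4 and down in 5.

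Regulators of G1 were split. Of 14 tested D cyclins, CDKs and inhibitors, 7 had a positive and 7 a negative difference, with a median of -0.01, and 2 stood lower at an unadjusted p under 0.05. Those were the CDK inhibitor genes Cdkn2d, given above, and Cdkn2c at -0.76 ± 0.29. Cyclin D1 (Ccnd1) stood at 0.25 ± 0.17 and cyclin D2 (Ccnd2) at 0.21 ± 0.12, and Cdk6, their kinase partner, at 0.00 ± 0.28. Ccnd1 had the opposite sign over divisions (-0.06), and Cdk6 was 0.10 in run 4 and -0.11 in run 5. Among 19 tested genes of quiescence and FOXO factors, the median was 0.11, with -0.01 in run 4 and 0.25 in run 5. It was -0.05 over divisions and -0.03 there with cell cycle scores. At that p, 1 gene stood higher and 0 lower. That gene was Tob1, an antiproliferative protein, at 9.3 to 45.2 CPM with a median of 28.9 against 6.74 to 16.8 CPM with a median of 13.7, a difference of 0.93 ± 0.32 with 9 of 9 experiments higher.

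Genes that mark HSCs stood on both sides. Of 29 tested, 3 stood higher and 3 lower at an unadjusted p under 0.05, against 3.56% and 2.93% of all genes. A positive difference was found in 21. The median was 0.14, with 0.08 over divisions and 0.01 there with cell cycle scores. Higher were Ly6a, which encodes the stem cell antigen Sca-1, the ETS factor gene Erg and Hlf, a transcription factor of HSC maintenance. Ly6a stood at 186.6 to 448.5 CPM with a median of 341.4 in Cd34-high and 30.5 to 337.6 CPM with a median of 242.02 in Cd34-low divisions, a difference of 0.81 ± 0.32 with 8 of 9 experiments higher. Erg stood at 173.9 to 450.8 CPM with a median of 292.8 against 124.3 to 408.5 CPM with a median of 216.4 (0.43 ± 0.14). Hlf stood at 205.6 to 1234.1 CPM with a median of 459.2 against 58.9 to 627.6 CPM with a median of 253.9 (0.85 ± 0.39), higher in 7 of 9. The Hlf difference of log2(CPM + 1) was 3.31 in experiment 69 and 3.17 in experiment 72, and -0.84 to 1.16 in the other experiments. All 3 genes overlap between tiers.

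Slamf1, Gata2 and Gfi1b were the 3 on the other side. Gata2, a transcription factor of HSCs and of megakaryocyte and mast cell fates, stood at 99.7 to 255.1 CPM with a median of 167.5 in Cd34-high and 158.9 to 698.5 CPM with a median of 253.8 in Cd34-low divisions, a difference of -0.77 ± 0.24, lower in 7 of 9 experiments. Gfi1b, a repressor of HSCs and the megakaryocyte and erythroid lineages, stood at 19.8 to 84.7 CPM with a median of 49.9 against 29.7 to 237.05 CPM with a median of 62.9 (-0.57 ± 0.24), also lower in 7 of 9. Slamf1, which encodes CD150, stood at 0 to 39.7 CPM with a median of 2.72 against 4.78 to 31.2 CPM with a median of 9.08 (-2.16 ± 0.94), with a count in 20.3% of cells from Cd34-high and 32.03% of cells from Cd34-low divisions. The ranges of each of the 3 overlap. Over divisions the Slamf1 difference was -0.51 and the Gfi1b difference -0.19, both smaller by over 1.5 times, and the Gata2 difference was -0.57. There with cell cycle scores, Slamf1 stood at -0.47, Gfi1b at -0.02 and Gata2 at -0.43.

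Procr, which encodes EPCR, a surface receptor used to sort HSCs, stood at 8.87 to 190.4 CPM with a median of 113.5 in Cd34-high and 3.79 to 138.8 CPM with a median of 55.3 in Cd34-low divisions. A count was present in 89.1% of cells from Cd34-high and 71.9% of cells from Cd34-low divisions. The difference was 1.06 ± 0.51, higher in 7 of 9 experiments, with experiments 75 and 77 the other way. As a difference of log2(CPM + 1), Procr stood at 4.78 in experiment 69 and 3.17 in experiment 72, and at -1.03 to 1.46 in the other experiments. Mecom, a transcription factor of HSC self-renewal, stood at 0.38 ± 0.28, with 0.05 over divisions and -0.08 there with cell cycle scores. Vwf, the von Willebrand factor gene that marks platelet-biased HSCs, stood at -0.19 ± 0.67, with -0.88 in run 4 and 0.48 in run 5. In the wider list of HSC transcription factors and Hox genes, 2 of 24 stood higher and 2 lower at an unadjusted p under 0.05 (median 0.05). They were Erg, Gata2, Gfi1b and the repressor gene Etv6 at 0.19 ± 0.08.

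**Figure D4:**
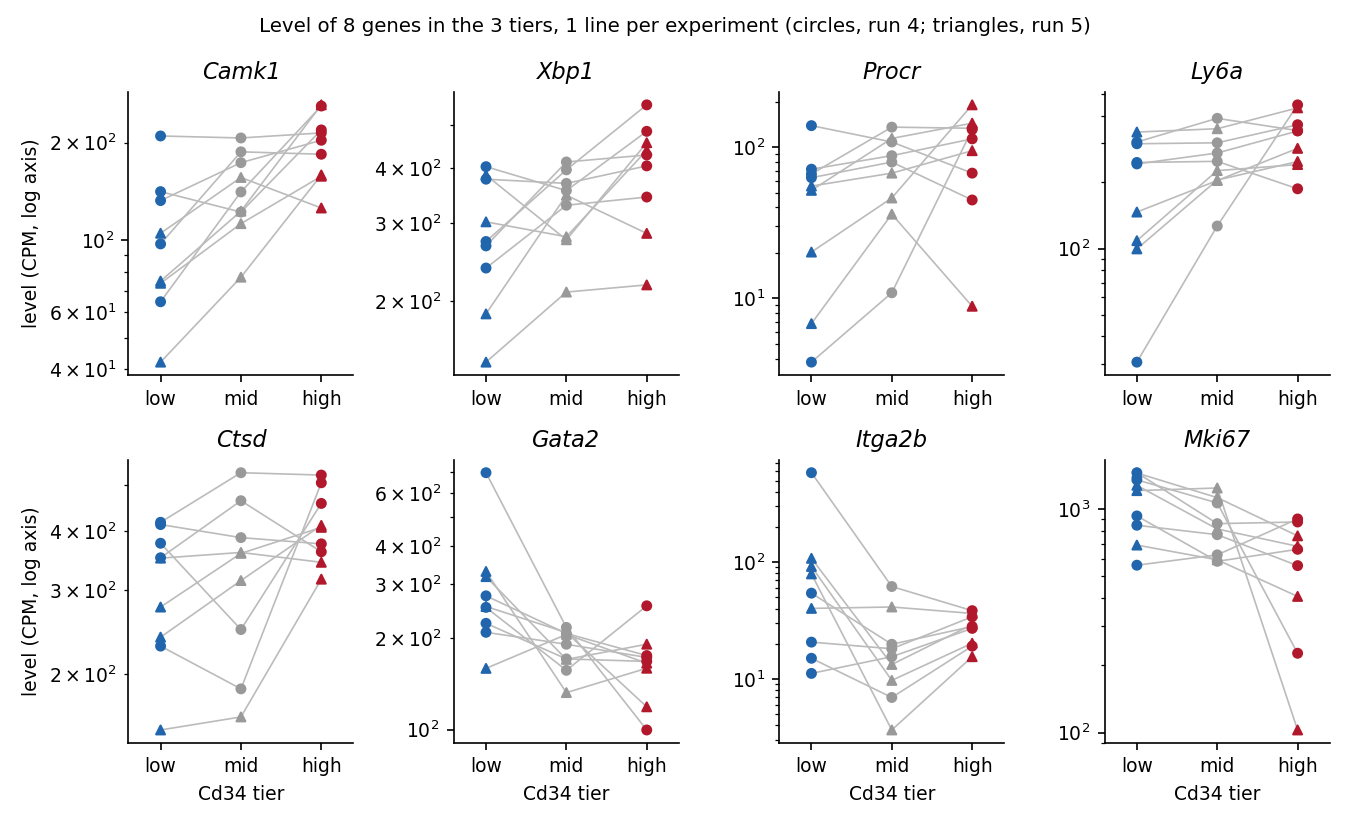
Level in CPM (log axis) of 8 genes in the Cd34-low, middle and Cd34-high divisions, 1 line per experiment (circles run 4, triangles run 5). Camk1 and Xbp1 are higher in Cd34-high divisions in 9 of 9 experiments; the ranges of every gene shown overlap between the outer tiers, and Itga2b has 1 culture far above the rest in the bottom tier.

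Genes of multipotent progenitors and of HSC activation had a median of 0.05 over 19 tested, with 2 higher and 0 lower at an unadjusted p under 0.05. Kit, the stem cell factor receptor, stood at 874.1 to 1408.7 CPM with a median of 1200.3 in Cd34-high and 694.99 to 1230.5 CPM with a median of 921.7 in Cd34-low divisions, a difference of 0.31 ± 0.11 with 8 of 9 experiments higher. Its difference was 0.08 in run 4 and 0.60 in run 5. Emb, the membrane glycoprotein embigin, stood at 145.4 to 242.2 CPM with a median of 201.9 against 41.7 to 212.6 CPM with a median of 129.8, a difference of 0.67 ± 0.21 with 8 of 9 higher. Both genes overlap between the tiers. Flt3, the receptor that marks lymphoid-primed progenitors, stood at 1.0 ± 0.74 with a count in 38.3% of cells from Cd34-high and 25.8% of cells from Cd34-low divisions, and its sign differed between the 2 rankings on single daughters (-0.16 and 1.87). Myc, the growth regulator, stood at 0.22 ± 0.33 (0.63 in run 4 and -0.38 in run 5). The myeloid and lymphoid factor gene Spi1 stood at 0.34 ± 0.17 and Sox4, a transcription factor of early progenitors, at 0.56 ± 0.28. Cd48, which marks progenitors beyond the HSC, had too few counts to be tested, with a count in 3.12% of cells from Cd34-high and 5.47% of cells from Cd34-low divisions.

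The other mucins and adhesion molecules of the CD34 family list stood on both sides of 0. Among 23 tested, 11 had a positive and 12 a negative difference, with a median of -0.05, and 1 stood higher and 1 lower at an unadjusted p under 0.05. Podxl, the podocalyxin gene of the closest CD34 relative, stood at 11.99 to 83.4 CPM with a median of 38.7 in Cd34-high and 16.7 to 120.4 CPM with a median of 52.5 in Cd34-low divisions (-0.45 ± 0.30), with -0.0035 in run 4 and -1.0 in run 5. The sialomucin gene Cd164 stood at 97.6 to 173.9 CPM with a median of 130.6 against 63.5 to 169.05 CPM with a median of 134.3 (0.03 ± 0.10), nearly the same in both tiers. Emcn, the endomucin gene of endothelium and HSCs, stood at 0.56 ± 0.43, with 1.08 in run 4 and -0.03 in run 5. The 2 genes under that p were the integrin gene Itgb7 at 2.07 ± 0.73, with 0.76 in run 4, 4.30 in run 5, 0.43 over divisions and a count in 30.5% of cells from Cd34-high and 25% of cells from Cd34-low divisions, and the adhesion gene Icam2 at -0.36 ± 0.13. The antisense gene Gm16897 overlaps Cd34 on the other strand and stood at 1.15 ± 0.37. Whether the counting used strand is not given in the sources used here, so its reads cannot be told apart from those of Cd34.

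Most lysosome genes had a small positive difference. All 42 listed genes were tested, 40 had a positive difference, 8 stood higher and 0 lower at an unadjusted p under 0.05, against 3.56% and 2.93% of all genes, and the median was 0.21. The median was 0.13 in run 4, 0.33 in run 5, 0.22 over divisions and 0.17 there with cell cycle scores, and 0.09 and 0.16 when ranking and measurement were in different daughters. Ctsd, the acid protease cathepsin D, stood at 316.9 to 525.7 CPM with a median of 407.7 in Cd34-high and 152.2 to 417.9 CPM with a median of 351.002 in Cd34-low divisions, a difference of 0.42 ± 0.14 with 7 of 9 experiments higher. Psap, the precursor of the saposins that help to degrade sphingolipids, stood at 180.005 to 447.99 CPM with a median of 376.4 against 174.5 to 424.9 CPM with a median of 256.04 (0.33 ± 0.12, 8 of 9). The protective protein gene Ctsa differed by 0.32 ± 0.11 and the alpha-mannosidase gene Man2b1 by 0.29 ± 0.10. The ranges of all 4 genes overlap between tiers. Summed over the list, lysosome genes ranged from 8787.6 to 12570.8 CPM in Cd34-high and 7726.1 to 13934.1 CPM in Cd34-low divisions, with Cd34-high the higher tier in 8 of 9 experiments.

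Receptor genes were also mostly above 0. Of 28 tested cytokine and growth factor receptors, 23 had a positive difference, and the median was 0.24. At an unadjusted p under 0.05, 6 stood higher and 0 lower, against 3.56% and 2.93% of all genes. Ifnar2, a chain of the type I interferon receptor, stood at 46.7 to 69.004 CPM with a median of 58.6 in Cd34-high and 35.4 to 49.3 CPM with a median of 44.4 in Cd34-low divisions, a difference of 0.41 ± 0.12 with 9 of 9 experiments higher. The ranges of Ifnar2 share only the stretch from 46.7 to 49.3 CPM. Its difference was 0.03 with the ranking on the low daughter and 0.62 with that on the high daughter. Il6ra, the interleukin 6 receptor, stood at 12.9 to 43.2 CPM with a median of 23.5 against 1.51 to 37.2 CPM with a median of 12.6 (1.5 ± 0.55, 8 of 9). Tnfrsf1b, a receptor for tumour necrosis factor, stood at 85.8 to 214.6 CPM with a median of 140.2 against 53.1 to 140.7 CPM with a median of 91.4 (0.54 ± 0.18, 8 of 9). The median of the receptors was 0.04 with the ranking on the low daughter and 0.19 with the ranking on the high daughter.

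Antigen presentation genes are given by class. Of 7 tested class II genes, 6 had a positive difference. At an unadjusted p under 0.05, 3 stood higher and 0 lower, against 3.56% and 2.93% of all genes, and the median was 0.98. It was 0.45 over divisions and 0.37 there with cell cycle scores, and 0.05 and 0.69 with the rankings on the low and the high daughter. H2-Ab1, a class II beta chain, stood at 18.03 to 72.8 CPM with a median of 44.9 in Cd34-high and 3.13 to 52.8 CPM with a median of 24.9 in Cd34-low divisions, a difference of 0.98 ± 0.23 with 9 of 9 experiments higher. Cd74, the invariant chain, stood at 7.38 to 173.6 CPM with a median of 34.1 against 0.0838 to 72.9 CPM with a median of 15.3 (1.76 ± 0.80, 6 of 9), and 0.42 over divisions. The alpha chain gene H2-Aa stood at 0 to 26.8 CPM with a median of 8.29 against 0 to 7.3 CPM with a median of 0.291 (3.30 ± 1.2), with 0.69 over divisions and a count in 28.1% of cells from Cd34-high and 12.5% of cells from Cd34-low divisions. The ranges of all 3 overlap between tiers. Of 13 tested class I genes, 0 stood higher and 0 lower at that p, the median was 0.08, and H2-K1 stood at 0.13 ± 0.09. Class I genes resemble each other, so reads may be split between them.

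Of 30 tested interferon response genes, 24 had a positive difference. At an unadjusted p under 0.05, 3 stood higher and 0 lower, against 3.56% and 2.93% of all genes, and the median was 0.20. It was 0.04 over divisions and 0.02 there with cell cycle scores. Rtp4, an interferon-induced chaperone of receptors, stood at 1.09 ± 0.42, the guanylate-binding protein gene Gbp2 at 0.60 ± 0.27 and Ifi27l2a at 2.18 ± 0.66, the last with 0.69 over divisions and a count in 35.9% of cells from Cd34-high and 21.1% of cells from Cd34-low divisions. Its relative Ifi27 stood at 9.67 to 88.01 CPM with a median of 60.1 in Cd34-high and 21.5 to 75.9 CPM with a median of 44.3 in Cd34-low divisions (0.02 ± 0.34), without a common direction.

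Lineage markers were compared as lists of the other cell types that could be present. Of 9 tested myeloid genes, 3 stood higher and 0 lower at an unadjusted p under 0.05, against 3.56% and 2.93% of all genes. A positive difference was found in 6 of the 9 and a negative one in 3. The median of the list was 0.35, and 0.06 and 0.12 with the rankings on the low and the high daughter. Cd33, a sialic acid-binding receptor, stood at 11.6 to 131.6 CPM with a median of 76.5 in Cd34-high and 4.97 to 123.5 CPM with a median of 37.4 in Cd34-low divisions (1.4 ± 0.43, 8 of 9 higher), with a count in 83.6% of cells from Cd34-high and 62.5% of cells from Cd34-low divisions. The signalling adaptor gene Tyrobp stood at 1.90 ± 0.80 (0.64 over divisions) and the lysozyme gene Lyz2 at 0.24 ± 0.11. The granulocyte receptor gene Csf3r stood at 0.98 ± 0.56. The summed level of the 19 listed myeloid genes ranged from 759.2 to 1280.4 CPM in Cd34-high and 754.96 to 1060.7 CPM in Cd34-low divisions, and Mpo, Ctsg and Irf8 were listed at 0.

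Megakaryocyte and erythroid genes had medians below 0. Of 14 tested megakaryocyte and platelet genes, 5 had a positive and 9 a negative difference. At an unadjusted p under 0.05, 0 stood higher and 3 lower, against 3.56% and 2.93% of all genes. The median was -0.24 on sums and -0.06 over divisions. Rab27b, which acts in platelet granule release, stood at 51.7 to 87.1 CPM with a median of 54.8 in Cd34-high and 50.9 to 126.8 CPM with a median of 69.8 in Cd34-low divisions (-0.49 ± 0.17). Mmrn1, the platelet protein multimerin, stood at 102.2 to 226.1 CPM with a median of 141.96 against 142.5 to 309.7 CPM with a median of 186.6 (-0.40 ± 0.15), and Gp9, of the platelet von Willebrand receptor, stood at -0.61 ± 0.26. Each of the 3 was lower in 7 of 9 experiments with wide overlap. Itga2b, which encodes CD41, stood at 15.5 to 38.4 CPM with a median of 28.1 against 11.1 to 583.6 CPM with a median of 54.2 (-1.01 ± 0.50), lower in 6 of 9, and its top value belongs to experiment 69 alone. All 7 tested erythroid genes had a negative difference, none at an unadjusted p under 0.05, with a median of -0.26. Tal1, a factor of HSCs and erythroid cells, stood at -0.26 ± 0.14, the carbonic anhydrase gene Car2 at -0.20 ± 0.11 and the transferrin receptor gene Tfr2 at -0.40 ± 0.23. Gata1, the master factor of both lineages, had too few counts for the edgeR test, and DESeq2 called it lower at -5.37 ± 0.97 (adjusted p = 0.0005) with a count in 5.67% of cells.

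The summed level of the megakaryocyte list ranged from 1273.97 to 1982.6 CPM in Cd34-high and 1350.7 to 3242.7 CPM in Cd34-low divisions, with Zfpm1 listed at 0, and that of the erythroid list from 646.04 to 948.1 CPM in Cd34-high and 681.5 to 1347.3 CPM in Cd34-low divisions, with Ermap and Alas2 listed at 0. Macrophage and dendritic markers ranged from 14.6 to 116.8 CPM in Cd34-high and 8.3 to 131.6 CPM in Cd34-low divisions, with C1qa and Vcam1 listed at 0, and 1 of 5 tested, Cd68, stood higher at an unadjusted p under 0.05 (1.14 ± 0.51, with -0.04 in run 4, 3.06 in run 5 and 0.36 over divisions). Lymphoid markers ranged from 73.5 to 118.5 CPM in Cd34-high and 27.4 to 107.1 CPM in Cd34-low divisions, with Rag1, Rag2, Cd3e, Igll1 and Ly6d listed at 0. Mast cell and basophil markers ranged from 86.4 to 240.4 CPM in Cd34-high and 89.8 to 345.5 CPM in Cd34-low divisions, with Fcer1a, Prss34, Tpsb2 and Cma1 listed at 0. Stroma and endothelium markers ranged from 70.03 to 264.4 CPM in Cd34-high and 72.97 to 194.5 CPM in Cd34-low divisions, with Lum listed at 0. No member of the last 3 lists stood under that p in either direction, of 4, 3 and 4 tested. The part of such cells in the differences above was not tested.

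**Figure D5:**
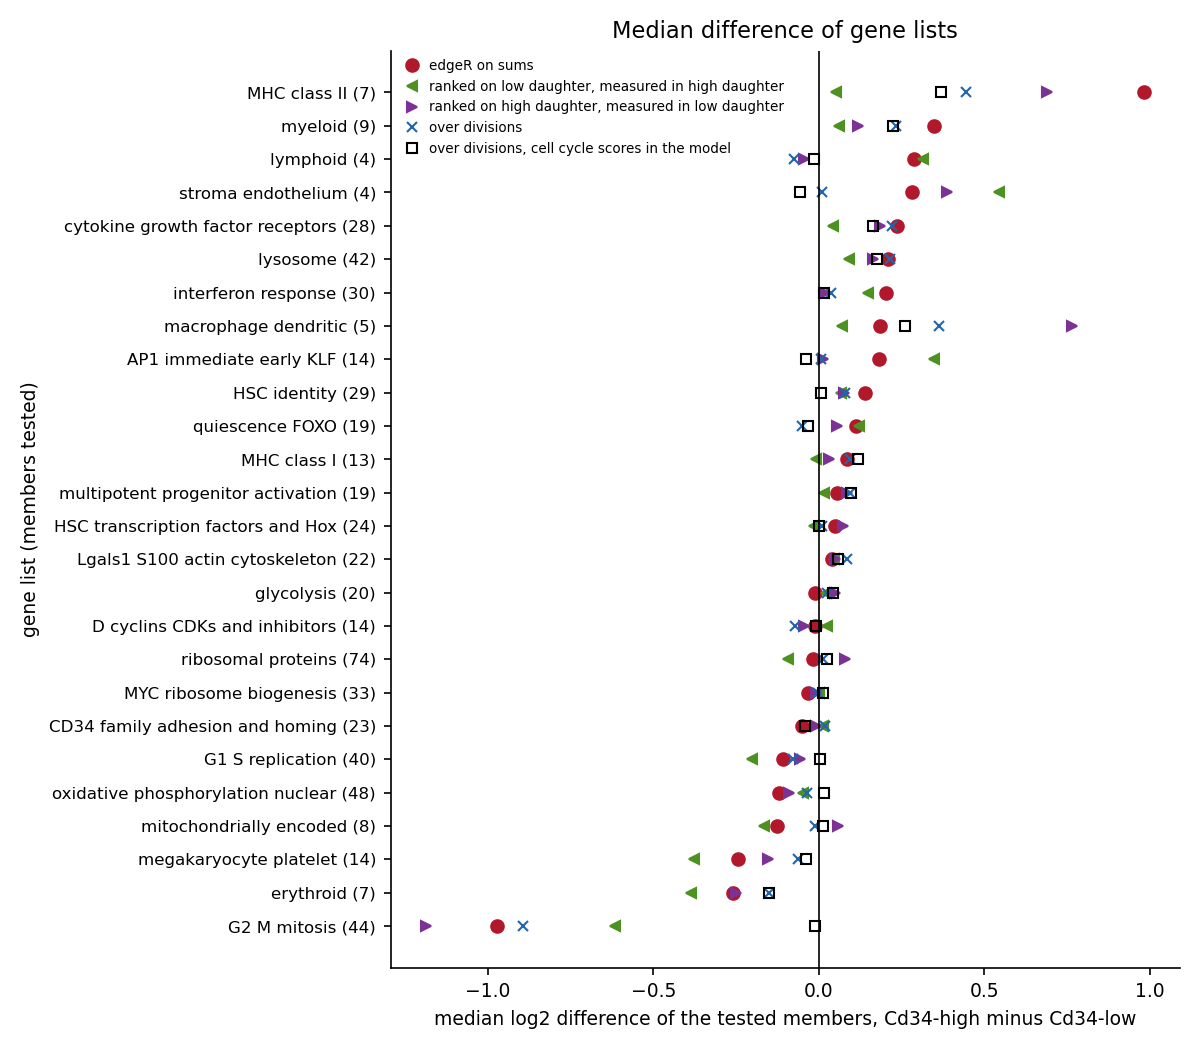
Median log2 difference of the tested members of each gene list between Cd34-high and Cd34-low divisions, in 5 settings: edgeR on sums, ranking on one daughter with measurement in the other (2 settings), and limma over divisions without and with cell cycle scores. The G2/M list is at -0.97 on sums, -0.89 over divisions and near 0 with the scores, MHC class II is at 0.98 on sums and at 0.05 to 0.69 in the other settings, and most lists lie close to 0.

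Genes of energy metabolism and translation had medians near 0. Of 48 tested nuclear genes of the respiratory chain, 42 had a negative difference, 2 stood lower at an unadjusted p under 0.05 and 0 higher, and the median was -0.12. Those were the ATP synthase genes Atp5h, at 118.4 to 179.4 CPM with a median of 146.9 in Cd34-high against 148.99 to 202.4 CPM with a median of 170.8 in Cd34-low divisions (-0.22 ± 0.08, lower in 9 of 9), and Atp5f1 at -0.21 ± 0.09. The median of this list was -0.04 over divisions and 0.01 there with cell cycle scores. Of 8 tested mitochondrially encoded genes, 1 stood lower, mt-Nd2 of complex I at -0.28 ± 0.11, with a median of -0.13. Glycolysis genes had a median of -0.01, with 2 higher and 1 lower at that p. Higher were the aldolase gene Aldoc at 0.73 ± 0.21 and the pyruvate dehydrogenase kinase gene Pdk1 at 0.56 ± 0.23. Lower was the hexokinase gene Hk1 at -0.23 ± 0.09. Aldoc stood at -0.17 with the ranking on the low daughter and at 1.18 with that on the high daughter. Among 74 tested ribosomal protein genes and 33 genes of MYC and ribosome biogenesis, 0 stood under that p, with medians of -0.02 and -0.03.

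Of 22 tested galectin, S100, annexin and actin cytoskeleton genes, 3 stood higher and 2 lower at an unadjusted p under 0.05, with a median of 0.04. The calcium-binding protein gene S100a4 stood at 0.43 ± 0.17, the annexin gene Anxa2 at 0.56 ± 0.25 and the thymosin gene Tmsb10 at 0.34 ± 0.14, while the actin-binding protein gene Tagln2 stood at -0.29 ± 0.11. The galectin gene Lgals1 stood at 34.3 to 270.996 CPM with a median of 137.1 in Cd34-high against 4.0 to 160.04 CPM with a median of 123.5 in Cd34-low divisions (0.74 ± 0.59, 7 of 9 higher). The Lgals1 difference of log2(CPM + 1) was 5.05 in experiment 69 and 4.68 in experiment 72, and -0.71 to 0.74 in the other experiments. Immediate early and KLF genes had 1 of 14 tested under that p, Dusp2, and a median of 0.18. The median was 0.01 over divisions and -0.04 there with cell cycle scores. It was 0.35 with the ranking on the low daughter and 0.01 with that on the high daughter. Summed over that list, levels ranged from 331.5 to 494.9 CPM in Cd34-high and 283.8 to 433.1 CPM in Cd34-low divisions, higher in Cd34-high divisions in 9 of 9 experiments.

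The genes whose level was most like that of Cd34 across divisions were found by Pearson's r of division mean log2(CPM + 1), centred on the experiment, over the divisions of all 3 tiers (64, 75 and 64). The points share libraries and depth, so r is a description. Over 11698 genes the 1st and 99th percentiles were -0.16 and 0.24, with a median of 0.02. The 5 highest were the lysosomal glycosidase gene Gusb at 0.43, Tmem173 at 0.42, the calcitonin receptor partner gene Ramp1 at 0.41, the lysosomal nuclease gene Dnase2a at 0.39 and the histone variant gene H2afy at 0.38. Measured across sisters, with Cd34 in one daughter and the other gene in its sister, they stood at 0.33, 0.25, 0.30, 0.24 and 0.27, against a 99th percentile of 0.16. For comparison, Cd34 of one sister against Cd34 of the other gave 0.65. The 5 lowest were Efcab5 at -0.28, Reep2 at -0.27, the mannose receptor family gene Mrc2 at -0.26, the RING finger gene Rnf208 at -0.26 and Gm11557 at -0.25, of which all but Reep2 had a count in under 40% of cells of either tier.

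In the comparison of tiers, Gusb stood at 169.4 to 293.7 CPM with a median of 270.7 in Cd34-high and 162.4 to 248.4 CPM with a median of 218.1 in Cd34-low divisions, a difference of 0.18 ± 0.10. Ramp1 stood at 129.02 to 207.6 CPM with a median of 162.9 against 40.4 to 171.8 CPM with a median of 127.8 (0.53 ± 0.18), and Dnase2a at 96.2 to 155.4 CPM with a median of 132.6 against 72.9997 to 143.1 CPM with a median of 99.2 (0.34 ± 0.12). Gusb was higher in 7 of 9 experiments and the other 2 in 8 of 9. H2afy differed by 0.22 ± 0.08.

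Inheritance of lysosomes was then compared within each tier, daughters labelled high against daughters labelled low. Within Cd34-high divisions, edgeR called 0 of 11927 genes (0.0%), with 3.61% at an unadjusted p under 0.05 (2.03% higher and 1.58% lower in daughters labelled high), and DESeq2 called 6. Within Cd34-low divisions, edgeR called 0 (0.0%), with 3.15% at an unadjusted p under 0.05 (1.63% higher and 1.53% lower), and DESeq2 called 2. The difference between the 2 inheritance effects, tested as an interaction, also had 0 genes past the threshold (0.0%), 3.24% at an unadjusted p under 0.05 (1.75% higher and 1.49% lower) and 0 in DESeq2. In both tiers and in their difference, limma on sister differences over divisions called 0 genes as well, with 4.96%, 4.01% and 4.45% at an unadjusted p under 0.05.

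The genes with the smallest edgeR p in these contrasts are given for reference, each with an adjusted p of 0.999 or more in edgeR. Within Cd34-high divisions, Taf4, a subunit of the general transcription factor TFIID, stood at 0.84 ± 0.21 (SE) in daughters labelled high against daughters labelled low, and at -0.36 within Cd34-low divisions. BC052040 stood at -0.83 ± 0.21 within Cd34-high and at -0.63 within Cd34-low divisions. Zfp658, a zinc finger gene with a count in 11.8% of cells, stood at 4.64 ± 1.09. Within Cd34-low divisions, Wdfy3, an adaptor of selective autophagy, stood at 0.57 ± 0.15 and at 0.09 within Cd34-high divisions. Mospd1 stood at -0.85 ± 0.22, and the cilium gene Rsph9 at 3.64 ± 0.88. In the interaction, Map4k1, a kinase of blood cells, stood at 0.76 ± 0.18, from 0.34 in Cd34-high and -0.42 in Cd34-low divisions. Taf4 stood at 1.19 ± 0.30 and Phf21b at 3.84 ± 1.03. None of these differences passed the edgeR test. Of the genes named here, DESeq2 called Zfp658 within Cd34-high divisions and Rsph9 and Mospd1 within Cd34-low divisions. A difference in inheritance with the Cd34 level was not detectable for any gene tested in the main edgeR fit or in DESeq2.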

How the data were processed

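Smart-seq2 libraries of single HSC daughters were compared. The authors deposited raw counts of reads per gene and cell, without normalization. Counting used featureCounts (Subread 1.5.0), per the submitters' processing notes, which also list SAMtools. The aligner and the build: not given in the sources used here. Gene identifiers, 55450 of 55450, matched GENCODE mouse release M21 on GRCm38, which supplied symbols and positions. The deposited metadata tables hold other values, the authors' labels for experiment, movie, position, colony, plate and lysosome inheritance. No source used here says how inheritance was scored. A further 171 count columns belong to no listed sample and were not used, and the 92 spike-ins were left out of totals and tests. No 2 libraries were identical. All divisions had both daughters on 1 plate.

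Counts were summed per experiment and tier and tested with edgeR 4.0.16 under R 4.3.3, by its quasi-likelihood F test after filterByExpr and TMM scaling, with the experiment as block (Benjamini-Hochberg adjustment over all genes tested, threshold 0.05). Inheritance was tested in 1 model of sums per experiment, tier and label, with experiment by tier as block. Each experiment gave both tiers, so the experiment pairs them by construction. Alternatives used limma 3.58.1 on log2(CPM + 1) of divisions, for genes detected in at least 20% of cells, and DESeq2 1.42.0, other rankings, filters and scalings, and each experiment left out. Library measures and Cd34 in sisters were tested with exact sign-flip permutation tests in Python 3.11.15 with scipy 1.17.1. The fits were tested on simulated data. Wilson intervals and totals cover counting error only, since reads lacking molecular identifiers cannot be counted as molecules.

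Named genes are the 15 higher and the 15 lower with the smallest p and the fitted sign in at least 8 experiments among genes past the threshold, filled by unadjusted p, at most 4 genes of each list with the smallest p, a fixed set of HSC, cell cycle and CD34 family genes, the 5 highest and the 5 lowest correlates of Cd34, and 3 genes per inheritance contrast. Genes called by DESeq2 or limma alone were named after their values were seen. The divisions, lists and tests were chosen with earlier results of these data known.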

Additional observations from a re-analysis of the deposited data

Results flagged for a closer look

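In 14 of 56 series of 9 experiments examined, 1 experiment lay far from the other 8, with a gap to its neighbour of more than 0.493 of the whole range (Dixon's 95% criterion). Chance alone marks about 1 in 20 such series. Experiment 69, with 4 divisions per tier, was that experiment for 6 of them. Its log2 difference, Cd34-high minus Cd34-low, was 4.32 for Emcn (the others -0.99 to 0.82), 3.83 for Ly6a (-0.40 to 1.31), 2.83 for Mecom (-0.91 to 0.76), 2.09 for Limd2 (0.15 to 0.92) and -2.70 for Ifi27 (-0.46 to 1.49), and its mitochondrial share differed by -1.5 percentage points (-0.45 to 0.45). Experiment 72, with 3 divisions per tier, stood apart for Myc at -2.46 (-0.39 to 1.49), for the podocalyxin gene Podxl at -2.57 (-0.73 to 1.14) and for the centriole gene Stil at -2.47 (-1.14 to -0.18). Experiment 77 stood apart for the helicase gene Ddx51 at 0.31 (-0.76 to -0.37), experiment 76 for S1pr2 at -0.098 (0.45 to 0.94) and experiment 60 for Cd164 at 0.62 (-0.17 to 0.18). The spike-in share of experiment 73 differed by -3.90 percentage points (-0.29 to 0.51). Cd34 in daughters labelled high minus daughters labelled low was 0.86 in experiment 68 (-0.08 to 0.30), and the difference over all divisions without 1 experiment ranged from 0.11 to 0.23. The part of the small group sizes in these values was not tested.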

How the results depend on the processing

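For Cd34-high against Cd34-low divisions, edgeR called 0 genes in each of the other settings run with it, and with 1 experiment left out, when 636 to 1165 genes stood at an unadjusted p under 0.05, the most without experiment 77. Other tools differed: DESeq2 called 45 genes, limma over divisions 1, limma with depth and detected genes 4, and limma with cell cycle scores or on means per experiment and tier 0. With no replicate block, that is without the experiment in the model, edgeR called 0 genes and 680 stood at an unadjusted p under 0.05 against 782. Within Cd34-high divisions, inheritance gave 6 genes in DESeq2 and 2 without a filter on low counts. Within Cd34-low divisions it gave 2 in DESeq2 and 2 without a filter, and the interaction gave 1 without a filter. The cause was not tested. Leaving out divisions with a shallow or spike-in-rich library, or with a daughter without a Cd34 count, were settings chosen after seeing the data, and both left 0 genes called, with 871 and 807 at an unadjusted p under 0.05. Up to 14 of 150 named genes changed sign, with cell cycle scores or with depth in the model. Of the 30 genes with the smallest p, 0 did so in any setting that gave a value. That is largely built in, since the 30 were picked by p in the main fit and the settings use the same cells. The difference in log2 total counts was 0.10 with divisions split at the middle rank (exact permutation p = 0.133), against 0.16, and that in detected genes was 40.25 in run 5 alone, against -44.0. Cd34 in high minus low daughters was 0.15 with a pseudocount of 10 (exact permutation p = 0.0352), and 0.11 to 0.23 with 1 experiment left out (exact permutation p = 0.0391 to 0.102), against 0.20 with an exact permutation p of 0.0508. Low counts limit the reading of genes such as Dok7, Thsd1, Tspan2 and H2-Aa.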

Other observations

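DESeq2 called 45 genes on the same sums. Chosen after their values were seen, genes outside the sets above include Nrp1, a coreceptor for VEGF and semaphorins, at 2.67 ± 0.70 on the log2 scale (adjusted p = 0.0443) with a count in 28.1% of cells, and Cfp, the complement regulator properdin, at 1.06 ± 0.27 (adjusted p = 0.0419) with a count in 86.5% of cells. The ADP-ribosyltransferase gene Parp8 stood at 0.83 ± 0.22 (adjusted p = 0.0443). On the lower side, Cit, the citron kinase of cytokinesis, stood at -1.18 ± 0.30 (adjusted p = 0.0332), Id3, an inhibitor of helix-loop-helix factors, at -2.45 ± 0.64 (adjusted p = 0.0446) and the noncoding gene Lockd, next to Cdkn1b, at -1.21 ± 0.32 (adjusted p = 0.0443). In edgeR each of these genes had an adjusted p of 0.743. Several of the 45 rest on few cells: Gpr39, Gata1, Nat8f4, Gm45881 and Itgb6 had a count in 5.67% to 9.61% of cells, and of these 5 only Gpr39 passed the edgeR filter on low counts.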
